A study of Homo sapiens with 64 samples.

Results

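The simple epithelial keratins KRT7, KRT8, KRT18, KRT19, KRT20, KRT23 and KRT80 were followed through RNA sequencing of 64 libraries from colorectal cancer (CRC) cell lines. Members were taken by gene symbol, which gave 7 of the 54127 genes listed in the count tables. The set was defined by name and not by a cutoff on a measured value, though earlier results of these data were known. Keratins are the intermediate filament proteins of epithelial cells. Each filament is built from pairs of a type I (acidic) and a type II (basic) chain, so the amounts of the partners are normally balanced. Single-layered epithelia such as the intestine use the simple keratins, with KRT8 and KRT18 as the basic pair, KRT19 as a further type I chain and KRT20 as a marker of differentiated intestinal epithelium.

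The 48 sorted libraries came from 6 human CRC lines. The study places HT55 with SW948 in colon cancer subtype CCS1, SW48 with RKO in CCS2, and HCT15 with DLD1 in CCS3. Cells were stained with CFSE, a dye diluted at each division, and grown as spheroids in non-adherent, serum-free culture with bFGF and EGF. On day 6 they were sorted into label-retaining cells (LRCs, bright in CFSE) and non-LRCs (the CFSE bulk), with 4 libraries of each population per line. The other 16 libraries were controls of DLD1 alone, taken as bulk populations. These cells had been given CFSE or its solvent DMSO (called unlabeled), and were collected on day 1 or on a later day that the sample labels call day 5 and the design text calls day 6, with 4 libraries per group. Whether the controls had passed through the sorter was not stated. Each subtype is represented by 2 lines, and those of CCS3 are known to come from 1 tumor, so the 6 lines are not 6 independent tumors. Replicates were numbered 1 to 4 in both populations. The study's methods call them biological, the sample labels do not say whether they were separate cultures, and the p-values measure the spread between these samples.

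Libraries held 12237225 to 20913455 counts on genes. Levels are given as CPM, counts relative to a common library total, scaled by edgeR's TMM method over all 64 libraries. CPM is compared between genes only after division by transcript length (CPM per kb). Fold changes are log2 differences from edgeR's quasi-likelihood test with Benjamini-Hochberg adjustment over all genes tested, and a gene was called at an adjusted p under 0.05. In 5 lines 6 colon epithelium markers summed to between 923 and 6061 CPM, with LGALS4 below 1 CPM in SW48. In RKO the same 6 markers summed to 36.4 to 42.2 CPM, and VIL1 and LGALS4 stood below 1 CPM. CDH1, the epithelial adhesion receptor, was at 0.930 ± 0.275 CPM (SD, n = 4) in RKO non-LRCs, while vimentin, the mesenchymal intermediate filament, was at 27.6 ± 1.93 CPM. Fibroblast markers summed to at most 14.0 CPM and endothelial markers to at most 9.16 CPM in any sorted library. Leukocyte markers summed to at most 1651 CPM, in SW948, where LYZ was the only one of the list above 1 CPM.

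On GRCh37 the type II members lay on chromosome 12, with KRT80 (ENSG00000167767) at chr12:52562780-52585798, KRT7 (ENSG00000135480) at chr12:52626304-52645970 and KRT8 (ENSG00000170421) at chr12:53290971-53343738. The type I gene KRT18 (ENSG00000111057) lay beside KRT8 at chr12:53342655-53346690. The other type I members lay on chromosome 17, with KRT20 (ENSG00000171431) at chr17:39032141-39041494, KRT23 (ENSG00000108244) at chr17:39078952-39093898 and KRT19 (ENSG00000171345) at chr17:39679869-39684560. The annotated ends of KRT8 and KRT18 overlapped on opposite strands, and the strand setting of the counting was not given in the sources used here, so reads from the shared stretch cannot be told apart. KRT8 and KRT18 also have processed copies across the genome. The 42 KRT8 pseudogenes listed held 0.661% as many counts as KRT8 itself and the 60 KRT18 pseudogenes 0.549% as many as KRT18, so the values of both genes carry an uncertainty from reads that fit several places.

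The RefSeq promoter table held 2 of the 7 members, KRT8 and KRT20. The KRT20 sequence is shown because this gene differed strongly between lines and had the largest fold change of the 6 members tested between sorted and control DLD1. It covers the 250 bases before the annotated start on the minus strand of GRCh38.p14, chr17:40885243-40885492, written 5′ to 3′.
KRT20: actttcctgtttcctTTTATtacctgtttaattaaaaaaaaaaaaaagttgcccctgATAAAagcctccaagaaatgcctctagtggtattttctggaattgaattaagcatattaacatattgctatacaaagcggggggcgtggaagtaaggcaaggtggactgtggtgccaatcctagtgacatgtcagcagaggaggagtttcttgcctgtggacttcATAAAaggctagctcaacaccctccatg
Capitals mark TTTAT on either strand, the core letters bound by the caudal homeobox factors CDX1 and CDX2 of the intestine. The stretch held 3 matches, whose leftmost bases lie at -235, -193 and -28 from the start. The letters overlap those of the TATA box. Of 35116 promoters of the same length, 32.7% held at least 1 match and 5.20% at least 3. The AP-1 letters TGANTCA were in 6.57% of promoters and not in this window. A match of letters is a description and not a measured binding site.

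The 6 lines expressed different sets of simple keratins. In non-LRCs all 7 members differed between lines by edgeR's F test, against a background of 98.3% of 15779 genes. The highest KRT8 and KRT18 levels were in HT55, the highest KRT20 in SW948, the highest KRT7 and KRT80 in SW48 and the highest KRT19 in HCT15. RKO was lowest for all 7, although for KRT20 and KRT23 it did not differ from its neighbor in the order beyond the spread. The plot of CPM by line and population shows the 4 libraries of each group.

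**Figure D1:**
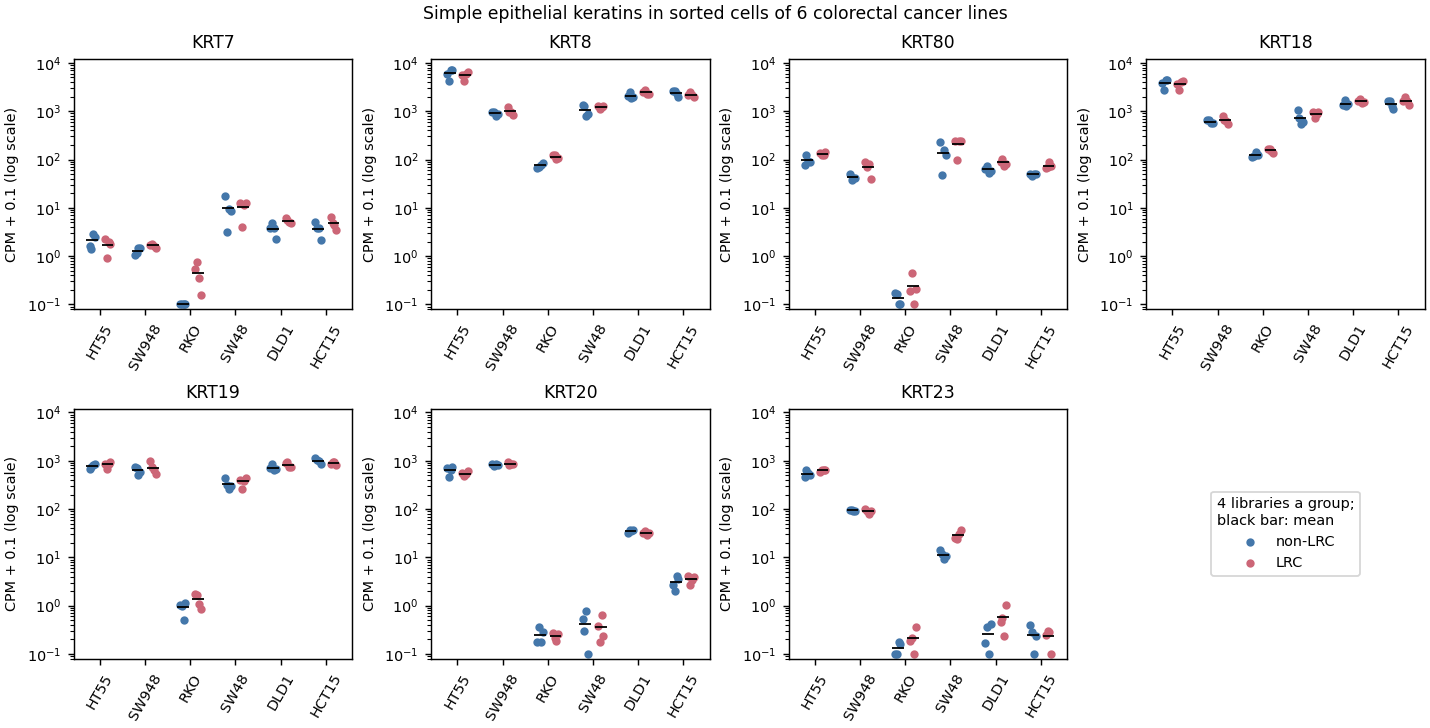
CPM plus 0.1 of each keratin on a log axis in the 4 non-LRC libraries (blue) and the 4 LRC libraries (red) of each line, with a black bar at the mean. KRT20 spanned from 829 CPM in SW948 to 0.150 CPM in RKO, and the 2 populations of a line lay close together beside the distances between lines.

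KRT8, the main type II partner, stood at 5935, 4245, 7227 and 7258 CPM in HT55 non-LRCs. In RKO it was at 68.2, 69.9, 77.5 and 85.9 CPM, an 81.8-fold lower mean. Between these came HCT15 (2380 ± 331 CPM), DLD1 (2078 ± 269), SW48 (1072 ± 258) and SW948 (897 ± 74.0; SD, n = 4 each). HCT15 and DLD1 did not differ beyond their spread (adjusted p = 0.34), nor did SW48 and SW948 (adjusted p = 0.17), while every other step in the order passed the test.

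KRT18, the type I partner of KRT8, followed the same order. It averaged 3884 ± 797 CPM in HT55, 1421 ± 254 in HCT15, 1419 ± 185 in DLD1, 730 ± 226 in SW48, 611 ± 49.2 in SW948 and 124 ± 13.1 in RKO. HT55 exceeded HCT15 2.73-fold in the ratio of means, and the fall from SW948 to RKO was 2.31 ± 0.18 (SE) on the log2 scale, less steep than the 3.58 ± 0.18 for KRT8. Per kb, the KRT8 to KRT18 ratio lay between 1.16 and 1.33 in the means of 5 lines. In RKO it was 0.484 ± 0.042, with more KRT18 than KRT8.

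KRT19, a type I chain that lacks most of the tail domain, was abundant in 5 lines and near the floor in RKO. HCT15 non-LRCs had 1008 ± 122 CPM, HT55 771 ± 83.0, DLD1 722 ± 102, SW948 643 ± 111 and SW48 328 ± 72.7 CPM. In RKO the 4 libraries gave 0.909, 0.909, 0.394 and 1.06 CPM, a mean 400.2-fold under that of SW48. HCT15 exceeded HT55 (adjusted p = 0.028), SW948 exceeded SW48 (adjusted p = 1.21e-06), and HT55, DLD1 and SW948 followed each other without a difference beyond the spread.

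KRT20, the type I keratin of mature enterocytes and goblet cells, was high in both CCS1 lines and low in the others. SW948 non-LRCs had 841, 775, 876 and 823 CPM, and HT55 non-LRCs had 725, 457, 653 and 742 CPM. DLD1 stood at 31.8, 36.6, 34.8 and 36.9 CPM and HCT15 at 2.60, 1.96, 4.03 and 3.55 CPM. SW48 (0.326 ± 0.291 CPM) and RKO (0.150 ± 0.089 CPM) were near the floor and did not differ beyond their spread (adjusted p = 0.18). SW948 exceeded HT55 by only 0.33 ± 0.15 (SE) on the log2 scale (adjusted p = 0.047).

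DLD1 and HCT15 are known to derive from the same tumor, and 49.4% of genes differed between their non-LRCs, the lowest share among the 15 contrasts of lines. Within this pair 2 of 7 members were called. KRT20 was 3.53 ± 0.20 (SE) higher in DLD1 on the log2 scale (adjusted p = 1.55e-13), 11.5-fold in the ratio of means. This difference holds for the sorted libraries, since the 16 DLD1 control libraries had 0.130 to 2.60 CPM of KRT20, with group means below the HCT15 non-LRC mean of 3.04 CPM. KRT19 was lower in DLD1, and KRT7, KRT8, KRT18, KRT23 and KRT80 did not pass the test. CDX2, whose core letters are marked above, averaged 246 ± 26.6 CPM in DLD1 and 391 ± 117 CPM in HCT15. CDX1 was above 1 CPM in SW948 (84.8 CPM) and HT55 (62.2 CPM), the lines highest in KRT20, and under 0.1 CPM in the non-LRCs of the other lines. CDX1 was picked out after its values were seen, and a link to KRT20 was not tested.

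KRT23, a type I keratin of unusual sequence, exceeded 1 CPM in the non-LRCs of 3 lines, HT55, SW948 and SW48. HT55 had 468, 631, 555 and 515 CPM, SW948 had 98.0, 97.5, 90.5 and 92.7 CPM, and SW48 had 14.0, 11.4, 9.10 and 10.5 CPM. DLD1, HCT15 and RKO stayed at or below 0.311 CPM in every non-LRC library, with no difference among neighbors beyond the spread. The steps from HT55 to SW948 and from SW948 to SW48 were 5.73-fold and 8.41-fold in the ratio of means, and both passed the test (adjusted p = 8.34e-15 and 7.03e-16).

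KRT80, a type II keratin reported at cell borders of many epithelia, had another order of lines than KRT8. Its non-LRC level was highest in SW48, at 226, 47.2, 155 and 123 CPM, and HT55 followed at 95.4 ± 18.8 CPM without differing beyond the spread (adjusted p = 0.075). Replicate 2 of SW48 was far below the other 3 there, in KRT80 and in KRT7 alike. DLD1 (62.2 ± 8.89), HCT15 (49.1 ± 2.99) and SW948 (42.7 ± 5.54 CPM) came next, neighbors without a difference beyond the spread, and RKO had 0.076, 0.065, 0.000 and 0.000 CPM.

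KRT7, the type II keratin that most colon epithelium lacks, was low in all 6 lines. SW48 led with 17.5, 3.11, 9.47 and 8.47 CPM, above DLD1 at 2.18 to 4.67 CPM (adjusted p = 0.0015). HCT15 (2.05 to 4.92), HT55 (2.01 ± 0.732) and SW948 (1.19 ± 0.220 CPM) followed without differences between neighbors beyond the spread. RKO non-LRCs had 0 counts of KRT7 in all 4 libraries, which allows up to 0.0523 CPM for 3 counts over the group. This limit covers counting error only.

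In the separate contrasts of lines the 7 members were called about as often as genes at large. HT55 differed from SW948 in 5 members (background 71.7%), from RKO in 7 (78.3%), from SW48 in 6 (75.3%), from DLD1 in 5 (71.4%) and from HCT15 in 6 (73.9%). SW948 differed from RKO in 7 (76.1%), from SW48 in 5 (74.3%), from DLD1 in 5 (70.8%) and from HCT15 in 6 (72.7%). RKO was lower than SW48 in 6 members (69.8%), than DLD1 in 6 (73.5%) and than HCT15 in 6 (74.4%). SW48 differed from DLD1 and from HCT15 in 7 each (67.5% and 67.4%), with 3 higher and 4 lower both times. With 7 members these shares are near the background.

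Per kb, the make-up of the simple keratins differed between lines. In HT55, SW48, DLD1 and HCT15, KRT8 supplied 42.7% to 46.8% of the 7 transcripts and KRT18 32.6% to 37.2%. In SW948 KRT8, KRT19, KRT20 and KRT18 each supplied between 22.6% and 26.3%. In RKO KRT18 made up 67.1% and KRT8 32.4%. The type I chains together came to 73.1% ± 0.548 in SW948 and 67.6% ± 1.85 in RKO non-LRCs, against 53.1% to 56.6% in the means of the other lines. The members took 0.737% to 1.17% of all gene counts in the HT55 non-LRC libraries and 0.0173% to 0.0204% in those of RKO.

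**Figure D2:**
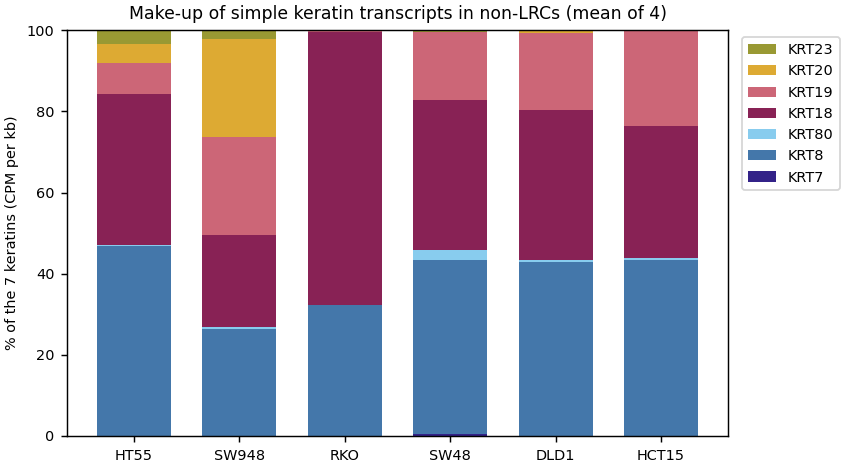
Stacked bars of the share of each keratin in the 7 members' summed CPM per kb, from the mean of 4 non-LRC libraries per line. SW948 is split almost evenly among KRT8, KRT18, KRT19 and KRT20, whereas RKO holds KRT18 (67.1%) and KRT8 (32.4%) with little else.

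Levels over the 12 sorted groups (6 lines by 2 populations) were compared by Pearson's r of mean log2 CPM, as a description. The points share their lines, so the 12 are not independent. KRT8 and KRT18 were each other's closest gene among 10965 (r = 0.992), and part of that likeness may lie in their overlapping ends. KRT19 and KRT80 followed (r = 0.962), whereas KRT7 and KRT20 showed r = 0.054. Both KRT19 and KRT80 were near the floor in RKO, with non-LRC means of 0.818 and 0.0352 CPM. Their r without RKO was not computed, and their orders of the other lines differed. Outside RKO, SW48 non-LRCs had the highest KRT80 mean (138 CPM) and the lowest KRT19 mean (328 CPM). HCT15 non-LRCs had the highest KRT19 mean (1008 CPM) and 49.1 CPM of KRT80. The RKO floor also enters the r of both with their closest genes. For KRT20 the closest genes were SLCO2B1 (r = 0.996), an organic anion transporter, FOXA2 (0.995), an endoderm transcription factor, and GPA33 (0.989), the intestinal surface antigen A33. For KRT80 LAMA3 (0.997), a laminin chain of the epithelial basement membrane, and GAREM1 (0.989) were among the closest. For KRT19 they were ANXA3, RAB17 and SCOC (all 0.997), and for KRT23 ATAD2B (0.986), H2AJ (0.982) and COQ8A (0.981). KRT7 was closest to PLK2 (0.980), IDUA (0.971) and CPEB2 (0.966), KRT8 after KRT18 to MYH14 (0.987) and TMEM181 (0.984), and KRT18 after KRT8 to TRAK2 (0.986) and KDM7A (0.980).

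The comparison of LRCs with non-LRCs asked which keratins differ between cells that had divided little and the cycling bulk. Over the 6 lines, with line as a covariate, KRT80 and KRT23 were higher in LRCs, 2 of 7 members, and none was lower. The background was 22.9% of 16603 genes. KRT80 was higher by 0.56 ± 0.11 (SE) on the log2 scale, 1.47-fold (adjusted p = 0.00014), and in 22 of 24 same-numbered pairs of libraries, with 1 lower and 1 at 0 in both. KRT23 was higher by 0.46 ± 0.12, 1.37-fold (adjusted p = 0.0039), and in 18 of 24 pairs. These were 4 of 4 pairs in HT55, 4 of 4 in SW48 and 1 of 4 in SW948, and the rest came from lines where it was near the floor. The remaining differences were 0.16 ± 0.07 for KRT18 (adjusted p = 0.073), 0.15 ± 0.07 for KRT8 (0.099), 0.12 ± 0.07 for KRT19 (0.23), 0.31 ± 0.17 for KRT7 (0.19) and -0.07 ± 0.07 for KRT20 (0.53). Without HT55 KRT8 (0.22, adjusted p = 0.014) and KRT18 (0.22, adjusted p = 0.012) were called as well, and KRT8 also without HCT15 (0.21, adjusted p = 0.034). With line and replicate number as a block KRT18 was called (adjusted p = 0.012), as it was by DESeq2 (0.049). In bulk libraries, fewer cells with a transcript and less of it per cell cannot be told apart.

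KRT20, the differentiation marker among the members, did not pass the test in any line where it was tested. It was higher in LRCs in 11 of 24 pairs. These include 2 of 4 pairs in RKO and 1 of 4 in SW48, where it was near the floor and too low to be tested. The 95% interval of the difference over 6 lines ran from -0.22 to 0.08 on the log2 scale. In SW948, where it was most abundant, LRCs had 939, 815, 852 and 840 CPM, a difference of 0.06 with an interval from -0.09 to 0.22. In HT55 LRCs had 547, 478, 535 and 611 CPM, a difference of -0.25 with an interval from -0.56 to 0.07, and the groups overlapped. With the replicate block, which paired the libraries of HT55, the difference was -0.23 ± 0.08 (SE) and not called (adjusted p = 0.23). In DLD1 LRCs had 32.6, 34.9, 28.7 and 32.1 CPM, overlapping the non-LRCs.

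**Figure D3:**
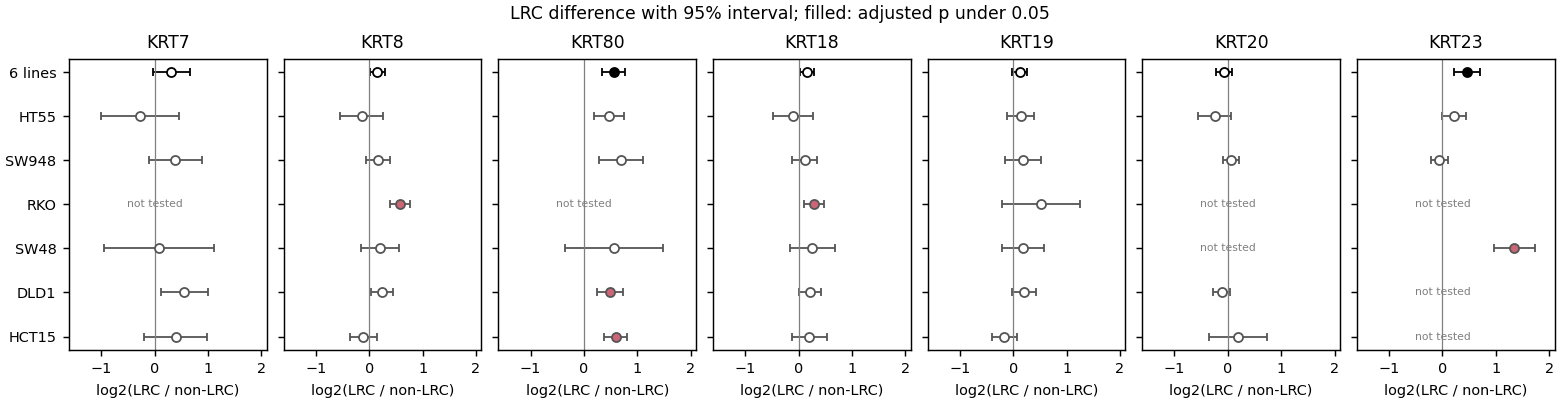
Log2 difference of LRCs from non-LRCs for each keratin with its 95% interval, over 6 lines (black, top row) and in each line alone (n = 4 against 4), with filled points where the adjusted p was under 0.05. KRT80 lies between 0.47 and 0.69 in the 5 lines that express it, while KRT23 stands out in SW48 at 1.35.

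KRT80 had a higher mean in the LRCs of each of the 5 lines that expressed it, and passed the test in DLD1 and HCT15. In HT55 the non-LRCs had 77.9, 122, 94.2 and 87.9 CPM and the LRCs 138, 124, 122 and 143 CPM, so that the lowest LRC library lay just above the highest non-LRC library. In SW948 the non-LRCs had 50.3, 36.9, 41.7 and 42.1 CPM and the LRCs 87.2, 69.1, 79.3 and 38.6 CPM. In this line 3 LRC libraries lay above all non-LRCs and replicate 4 lay among them. In SW48 the LRCs had 246, 95.3, 241 and 237 CPM, and replicate 2 was the low library in both populations. In DLD1 the non-LRCs had 64.5, 73.7, 53.6 and 57.1 CPM and the LRCs 90.6, 103, 74.5 and 79.0 CPM, and in HCT15 the non-LRCs had 49.9, 44.7, 50.7 and 51.2 CPM and the LRCs 66.7, 68.3, 87.3 and 73.8 CPM. The groups did not overlap in HT55, DLD1 and HCT15. The share of all genes without overlap in these lines is not given here, so this is a description.

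The differences for KRT80 were 0.47 ± 0.13 in HT55, 0.69 ± 0.19 in SW948, 0.57 ± 0.41 in SW48, 0.49 ± 0.11 in DLD1 and 0.60 ± 0.10 in HCT15 (log2, SE). The test of a difference between lines gave an adjusted p of 0.98 for KRT80, which does not show that the lines act alike, and the widest interval, that of SW48, ran from -0.35 to 1.48. In RKO the gene was at the floor in both populations. Over the 5 other lines 19 of 20 pairs were higher in LRCs. When a replicate number or a line was left out, the difference over lines lay between 0.53 and 0.59, with adjusted p from 3.21e-06 to 0.0080.

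**Figure D4:**
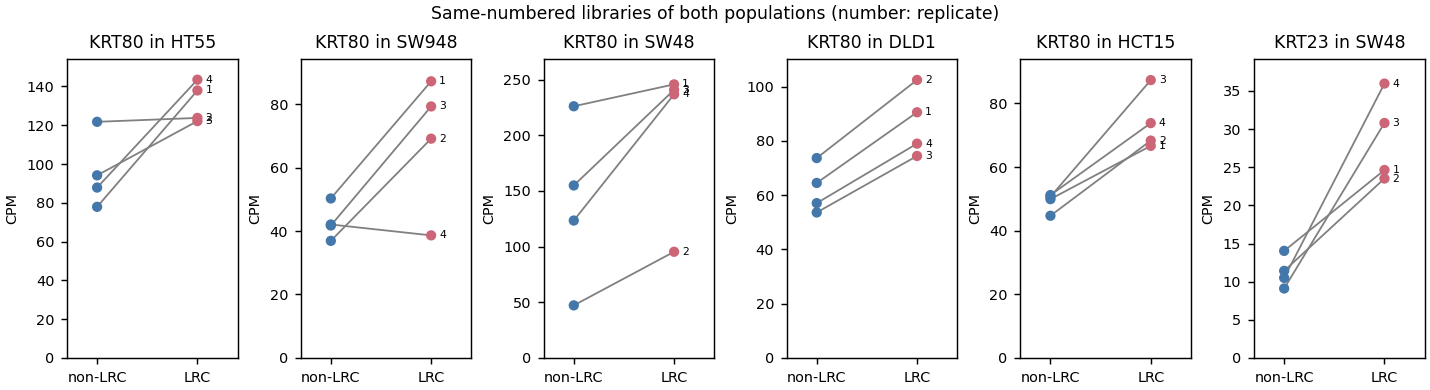
CPM of KRT80 in 5 lines and of KRT23 in SW48, with grey lines joining the non-LRC and LRC libraries of the same replicate number (printed beside the LRC point). KRT80 rises along 19 of 20 lines, replicate 4 of SW948 being the exception, and KRT23 in SW48 rises along all 4.

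KRT23 was the 1 member of 7 whose LRC difference varied between lines (adjusted p = 6.81e-05; background 14.3% of genes). The replicate block also called KRT7 (adjusted p = 0.0047) and KRT8 (0.0016) there, as did DESeq2 (0.0058 and 0.019). In SW48 the LRCs had 24.6, 23.5, 30.8 and 36.0 CPM, and every one lay above the non-LRC libraries given above. The difference was 1.35 ± 0.17 (log2, SE), 2.54-fold (adjusted p = 0.0082), and it was the 1 call among the 6 members tested in SW48, against a background of 0.796%. In HT55 the LRCs had 597, 634, 648 and 640 CPM, higher by 0.22 ± 0.10 (adjusted p = 0.69), and in SW948 they had 102, 90.1, 79.6 and 89.5 CPM, a difference of -0.06 ± 0.08 (adjusted p = 0.72). Without SW48 the difference over lines was 0.12 (adjusted p = 0.41), so the call over 6 lines rests on SW48. Replicate numbers paired the libraries of SW48, and with this block KRT80 was called in SW48 as well (0.67, adjusted p = 0.0095), and all genes called rose from 105 to 1279.

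RKO, with the smallest amount of simple keratin, was the line in which KRT8 and KRT18 passed the test. KRT8 was at 125, 124, 102 and 109 CPM in LRCs, above all 4 non-LRC libraries, a difference of 0.58 ± 0.09 (log2, SE), with a 95% interval of 1.31- to 1.71-fold (adjusted p = 0.00012). KRT18 was at 167, 166, 152 and 133 CPM in LRCs against 112, 116, 141 and 126 CPM in non-LRCs, a difference of 0.29 ± 0.09 (adjusted p = 0.016), and the groups overlapped. These were 2 of the 3 members tested, against a background of 41.5% of genes in this line. The KRT18 call was lost without non-LRC replicate 1 (0.25, adjusted p = 0.054) or without LRC replicate 2 (0.26, adjusted p = 0.054), and in the fit of all 48 sorted libraries (0.31, adjusted p = 0.16). The KRT8 to KRT18 ratio per kb was 0.591 ± 0.048 in LRCs and 0.484 ± 0.042 in non-LRCs.

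The other members were scarce in RKO. KRT19 had 1.65, 1.58, 0.990 and 0.757 CPM in LRCs, a difference of 0.53 ± 0.35 (adjusted p = 0.23). KRT7 had 20 counts over the 4 LRC libraries, 1 to 11 in each, against 0 in non-LRCs. This put the mean LRC level at least 6.58-fold higher than the floor of 3 counts over the non-LRC group, and the gene was too low to be tested. Of 12 proliferation genes, 10 were lower in RKO LRCs and none higher, and 5 of 10 dissociation stress genes were higher and 3 lower. Their part in the keratin differences was not tested.

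In DLD1 1 of 6 members tested was called, KRT80 (adjusted p = 0.018), against a background of 14.6%. KRT7 was at 6.06, 5.41, 4.95 and 4.77 CPM in LRCs against 3.76, 4.67, 3.79 and 2.18 CPM in non-LRCs, which did not overlap (difference 0.56 ± 0.20, adjusted p = 0.087). KRT8 was at 2506, 2687, 2326 and 2257 CPM in LRCs against 2043, 2463, 1849 and 1956 CPM, higher in 4 of 4 pairs but overlapping as groups. The replicate numbers paired the libraries of DLD1, and with the replicate block 5 of 6 members were called. These were KRT80 (0.49, adjusted p = 1.26e-08), KRT8 (0.25, 3.56e-05), KRT18 (0.22, 0.00019), KRT19 (0.21, 0.00038) and KRT7 (0.56, 0.0078), all higher in LRCs, while KRT20 was not called (-0.12, 0.17). All genes called rose from 1978 to 4591 with the block. Without non-LRC replicate 2, the highest non-LRC library for these genes, the fit without the block also called 5. KRT7, KRT8, KRT18 and KRT19 were each called in that fit only, 1 of the 8 that left out a library. Of 12 proliferation genes 10 were lower in DLD1 LRCs, as in RKO. In HCT15, HT55, SW948 and SW48 edgeR and DESeq2 each called 0 of the 12, with medians of 0.18, 0.05, -0.00085 and -0.49. By edgeR 0, 0, 2 and 2 were under 0.05 unadjusted, beside 17.2%, 7.51%, 17.2% and 13.1% of all genes. Any part of the proliferation genes in the KRT80 differences was not tested. With all 48 sorted libraries in 1 fit, KRT80 in DLD1 was not called (0.47, adjusted p = 0.31).

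In HCT15 KRT80 was the 1 call of 6 (adjusted p = 0.032; background 0.977%). This call held in 1 of 8 fits that each left out a library, that without LRC replicate 4, and in the other 7 the adjusted p lay between 0.062 and 0.10. The replicate block, which paired the libraries here, kept KRT80 as the 1 call (0.59, adjusted p = 1.79e-05) while all genes called rose from 137 to 2987, and with all 48 sorted libraries in 1 fit it was not called (0.59, adjusted p = 0.18). KRT8 and KRT19 had lower means in HCT15 LRCs, at -0.11 ± 0.12 and -0.16 ± 0.10, and neither passed the test.

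The 2 CCS1 lines gave no call. In HT55 0 of 7 members and 0% of 13391 genes passed edgeR's test, while KRT80 alone among the members had an unadjusted p under 0.05, as did 7.51% of all genes. DESeq2 also called 0 members. Without non-LRC replicate 2, KRT80 in HT55 was called (0.61, adjusted p = 0.0040). In SW948 0 of 7 members and 0% of 13674 genes passed, with KRT80 again the 1 member under 0.05 unadjusted, as were 17.2% of all genes, and DESeq2 called 0 members. Without LRC replicate 4, KRT80 in SW948 was called (0.89, adjusted p = 9.19e-05). The means of KRT8 and KRT18 were lower in HT55 LRCs in 4 of 4 pairs (-0.14 ± 0.18 and -0.11 ± 0.17), the opposite of RKO and DLD1. Neither passed the test in HT55, also not with the replicate block (-0.13 ± 0.07 and -0.11 ± 0.06, adjusted p = 0.37 and 0.45). The difference between lines gave adjusted p = 0.067 for KRT8 and 0.67 for KRT18. For KRT8 that test passed with the replicate block (adjusted p = 0.0016), with DESeq2 (0.019), without a filter (0.0032) and with 10 counts in every sample (0.038), and it missed the threshold without TMM (0.054) and without any 1 replicate number (0.064 to 0.42).

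Genes that act with keratins were read over the 6 lines from lists written by hand, where the median difference of all genes was 0.01 (log2). Among desmosome and keratin linker genes, 3 of 17 tested were higher in LRCs and 3 lower, with a median of 0.05. DSG3 (1.33 ± 0.23) and PPL (0.44 ± 0.12) encode a desmosomal cadherin and periplakin, and DSP (0.22 ± 0.06) encodes desmoplakin, which anchors keratin filaments. DSG3 was near the floor outside SW48, where its means were 3.49 CPM in non-LRCs and 11.5 CPM in LRCs. PKP1 (-0.28 ± 0.08), FAM83H (-0.13 ± 0.03) and TCHP (-0.18 ± 0.05) were lower. Other intermediate filament genes had 1 higher and 2 lower of 9, with the lamins LMNB2 (-0.25 ± 0.04) and LMNB1 (-0.33 ± 0.09) lower and BFSP1 (0.55 ± 0.13) higher, and a median of 0.11. BFSP1 rose most in RKO, from a mean of 5.71 CPM to 22.6 CPM in LRCs, and had a lower LRC mean in HT55 alone. The keratins outside the 7 were further apart, with 9 of 22 tested higher and 0 lower by edgeR and a median of 0.57, among them KRT16 (1.10 ± 0.22) and KRT15 (0.82 ± 0.13). Scarce genes could enter this test through the population where they were higher, so the count is a description. KRT10, a suprabasal epidermal keratin, was not called (0.16 ± 0.06, adjusted p = 0.055).

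Of 17 colon differentiation genes tested, 6 were higher in LRCs and 1 lower, with a median of 0.19. The most certain were the carcinoembryonic antigen family members CEACAM6 (1.02 ± 0.15), CEACAM7 (1.63 ± 0.27) and CEACAM5 (0.91 ± 0.19), and the microvillus protein VIL1 was the gene that was lower (-0.30 ± 0.10). Epithelial transcription factors had 2 of 15 higher, KLF4 (0.38 ± 0.07) and ELF3 (0.46 ± 0.09), and 1 lower, HNF4A (-0.15 ± 0.04), with a median of -0.02. Crypt stem cell genes had 3 of 12 higher, OLFM4 (1.32 ± 0.22), SMOC2 (0.96 ± 0.29) and CD44 (0.15 ± 0.05), and a median of 0.03. OLFM4 was near the floor outside SW948, where its means were 47.5 CPM in non-LRCs and 124 CPM in LRCs. SMOC2 means in non-LRCs and LRCs were 1.898 and 9.65 CPM in SW948 and 11.99 and 12.2 CPM in HT55. In the other lines SMOC2 averaged below 1 CPM. Of 12 proliferation genes 5 were lower and 0 higher by edgeR, with a median of -0.27, and MCM2 (-0.28 ± 0.07), MCM6 (-0.25 ± 0.06) and AURKB (-0.34 ± 0.12) led. Of 10 dissociation stress genes 1 was higher, ATF3 (1.19 ± 0.15), with DUSP1 (0.36 ± 0.15, adjusted p = 0.068) and FOSB (0.59 ± 0.26, adjusted p = 0.091) not called, and a median of 0.14. Of the colon epithelium, fibroblast, leukocyte and endothelial markers tested over the lines, 1 of 6 was lower (VIL1), 0 of 2 called, 1 of 4 higher (CSF1R, 1.83 ± 0.39) and 1 of 2 higher (TIE1, 0.88 ± 0.24). CSF1R averaged below 1 CPM in every line, and TIE1 in every line but RKO. The part of these genes in the keratin differences was not tested.

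The DLD1 controls asked what the days in culture and the dye do in bulk populations. KRT23 was too low in these 16 libraries to be tested, which left 6 members. KRT19 was higher on the later day whether the cells were unlabeled or stained. In unlabeled cells it was at 773, 784, 718 and 965 CPM on day 1 and 1724, 1437, 1120 and 1126 CPM later, and in stained cells at 505, 613, 630 and 624 CPM and later at 1011, 990, 866 and 1030 CPM. The days did not overlap in either set. The differences were 0.73 ± 0.14 (adjusted p = 0.0062) and 0.68 ± 0.14 (adjusted p = 0.0018), log2 with SE.

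In unlabeled cells 3 of 6 members were called over time, all higher (background 25.5%). KRT80 went from 23.2, 23.1, 15.7 and 41.8 CPM to 41.8, 40.5, 43.4 and 43.4 CPM (0.70 ± 0.21, adjusted p = 0.026), overlapping through the one high library of day 1. KRT20 went from 0.213, 0.436, 0.526 and 1.80 CPM to 1.65, 2.02, 2.60 and 2.15 CPM (1.48 ± 0.50, adjusted p = 0.042). The KRT20 call was lost in 9 of 16 fits that left out a control library (adjusted p up to 0.13, without unlabeled day 1 replicate 1), and the KRT80 call in 5 (up to 0.084, without the same library). Without unlabeled day 1 replicate 4, the high library, KRT18 was also called, lower on the later day (-0.48, adjusted p = 0.026). Without TMM 1 of 3 calls was left, that of KRT19. Total counts in place of TMM shifted the median of all genes by -0.13 in this comparison, and 22.9% of calls were then higher, against 48.5% with TMM.

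In CFSE-labeled cells 3 of 6 were also called over time, all higher (background 39.3%). Besides KRT19 these were KRT7, from 1.66, 1.87, 1.88 and 1.27 CPM to 2.95, 3.37, 2.04 and 3.55 CPM without overlap (0.79 ± 0.25, adjusted p = 0.021), and KRT8, from 1802, 2164, 2637 and 2618 CPM to 3610, 3566, 2543 and 2922 CPM with overlap (0.42 ± 0.15, adjusted p = 0.031). The KRT7 call was lost without CFSE day 1 replicate 4, CFSE later day replicate 2 or replicate 4 (adjusted p = 0.063, 0.054 and 0.064). The KRT8 call was lost in 5 of 16 such fits, with an adjusted p up to 0.14 without CFSE day 1 replicate 2. KRT80, between 23.3 and 31.3 CPM in all 8 stained libraries, showed a difference of 0.06 with an interval from -0.39 to 0.50. Without TMM the median of all genes shifted by -0.11, and 36.1% of calls were higher, against 51.4%. In the same comparison all 10 dissociation stress genes were lower on the later day and 5 of 6 colon epithelium markers higher. Their part in the keratin differences was not tested.

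The dye on day 1 went with lower KRT19 (-0.42 ± 0.14, adjusted p = 0.039) and KRT7 (-0.76 ± 0.25, adjusted p = 0.041), 2 of 6 members (background 21.8%). The stained and unlabeled KRT19 values given above did not overlap on that day, whereas KRT7 in unlabeled cells, at 3.20, 3.18, 1.81 and 3.28 CPM, overlapped the stained cells. Both calls were lost in each of 6 of the 16 fits that left out a control library, with adjusted p up to 0.13 for KRT19 (without CFSE day 1 replicate 1), and KRT7 also in a seventh (without CFSE day 1 replicate 4, 0.097). Here 6 of 10 dissociation stress genes were higher and 4 of 6 colon epithelium markers lower with the dye, and their part was not tested. On the later day edgeR called 0 of 6 members for the dye (background 5.13%), and DESeq2 called 2. By edgeR 4 members had an unadjusted p under 0.05, as did 24.4% of all genes. KRT19 was lower by 0.48 ± 0.14 on the log2 scale (adjusted p = 0.056) and KRT80 by 0.63 ± 0.21 (adjusted p = 0.081). Without unlabeled day 1 replicate 4 both were called (adjusted p = 0.030 and 0.0060), and without unlabeled day 1 replicate 3 KRT80 was (adjusted p = 0.047). Of 12 proliferation genes 10 were higher with the dye on that day. The test of whether the change over time depended on the dye called 0 of 6 by edgeR (background 0.999%), and DESeq2 called 0. KRT80 was the 1 member under 0.05 unadjusted by edgeR, beside 17.04% of all genes. Without unlabeled day 1 replicate 4 KRT80 was called there (-0.93, adjusted p = 0.011).

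**Figure D5:**
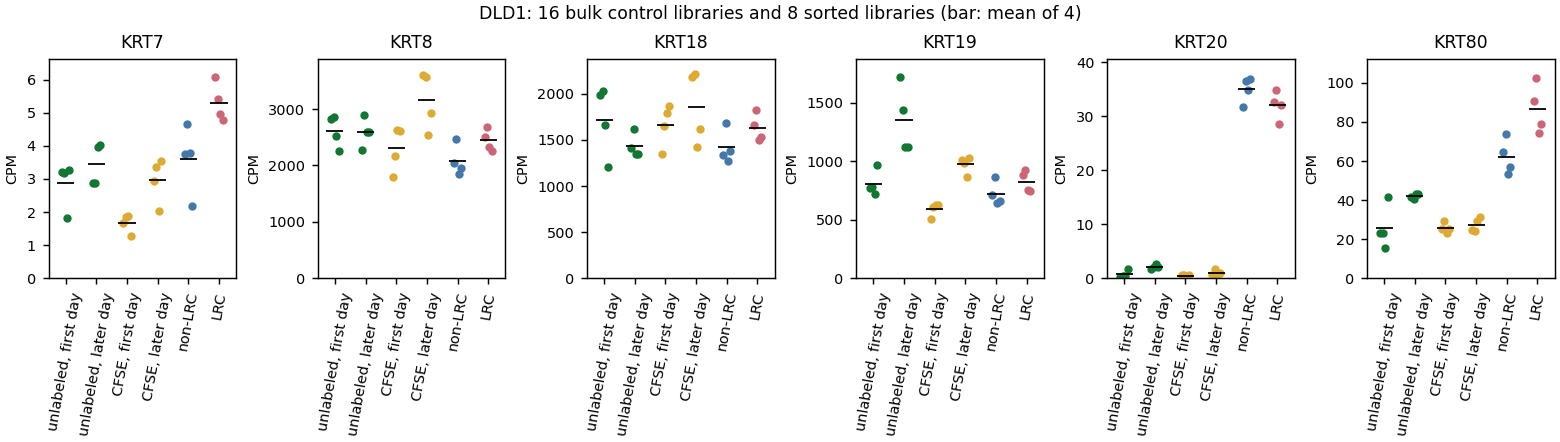
CPM of 6 keratins in the 16 DLD1 control libraries (green unlabeled, yellow CFSE) and the 8 sorted DLD1 libraries (blue non-LRC, red LRC), with a bar at the mean of 4. KRT20 stays at or below 2.60 CPM in all controls and lies between 28.7 and 36.9 CPM in the sorted libraries.

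The sorted DLD1 libraries held far more KRT20 than the controls of the same line. CFSE-labeled controls of the later day had 0.576, 1.65, 0.627 and 1.02 CPM, against 31.8 to 36.9 CPM in sorted non-LRCs. The difference, a comparison added after seeing the data, was 5.17 ± 0.21 (log2, SE), 36.1-fold with a 95% interval from 26.3 to 49.5 (adjusted p = 4.84e-09). KRT80 was also higher in the sorted cells (1.19 ± 0.12, 2.28-fold, adjusted p = 5.12e-06), while KRT8 (-0.59 ± 0.13), KRT19 (-0.42 ± 0.10) and KRT18 (-0.38 ± 0.15) were lower and KRT7 did not pass the test (0.30 ± 0.25). These were 5 of 6 members, against a background of 64.6% of genes. KRT18 was lost in 5 of 8 fits that left out a library (adjusted p up to 0.13, without non-LRC replicate 3). KRT23, which accompanied high KRT20 in SW948 and HT55, stood at 0.160 ± 0.150 CPM in the sorted DLD1 non-LRCs and 0.196 ± 0.150 CPM in these controls. The sort and anything else that differed between the 2 experiments cannot be told apart.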

How the data were processed

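RNA from sorted spheroid cells of 6 CRC lines and from DLD1 controls was sequenced as 50-bp single-end TruSeq libraries. Each sample has 1 table of whole-number read counts for genes, which the authors deposited without normalization. The submitters' processing notes name TopHat, HTSeq, DESeq and hg19 without versions, and the annotation and strand setting were not given in the sources used here. Reads on genes numbered 12237225 to 20913455 per sample (median 15063858), those outside genes came to 5.19% to 14.8%, and low counts carry a large counting error. No 2 samples were identical.

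Groups came from the sample labels. In R 4.3.3, a gene entered a comparison when 4 or more of its samples held 10 counts, and edgeR 4.0.16 was run (TMM, quasi-likelihood, two-sided, Benjamini-Hochberg, threshold 0.05). LRCs were compared with non-LRCs over 6 lines with line as a covariate and within each line, lines within non-LRCs, and controls by group means. DESeq2 1.42.0, other filters, total counts without TMM, the replicate block, left-out libraries and lines, and 1 fit of all 48 sorted samples were alternatives. The tests ran on simulated counts first. CPM per kb used the canonical transcript length of GENCODE release 44 on GRCh37, log2 CPM a prior count of 2. Replicate numbers were taken to pair libraries where every same-numbered pair of deviations from the group means correlated above 0.1. This held in HT55, SW48, DLD1 and HCT15 (lowest r 0.12 to 0.23) and not in SW948 or RKO (-0.07 to 0.01), nor for the controls except between the CFSE-labeled days (lowest r 0.12). All 7 members were named in every comparison, and from each list the 3 genes with the smallest p over 6 lines, or for other keratins the 3 with the highest CPM, and further called genes were named after their values were seen. The members, lists and tests were chosen with earlier results of these data known. Promoter sequence came from RefSeq (GRCh38.p14). Some items that the named-gene rule and marker lists would name are not reported here.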

Additional observations from a re-analysis of the deposited data

Results flagged for a closer look

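In 5 groups the lowest library stood far from the other 3, by Dixon's criterion for groups of 4, among 111 groups of members examined. Chance gives such a library in about 1 in 20 groups. KRT80 in SW48 LRCs was at 95.3 CPM in replicate 2 against 237 CPM in the next library, and KRT7 in the same replicate was at 3.94 CPM against 11.5 CPM. KRT7 in unlabeled DLD1 controls of day 1 was at 1.81 CPM in replicate 3 against 3.18 CPM. In CFSE-labeled DLD1 controls of day 1, KRT19 was at 505 CPM in replicate 1 against 613 CPM, and KRT20 at 0.130 CPM in replicate 3 against 0.584 CPM. The LRC difference of KRT23 varied between the 6 lines by edgeR's interaction test (adjusted p = 6.81e-05), with 1.35 in SW48, 0.22 in HT55 and -0.06 in SW948 on the log2 scale.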

How the results depend on the processing

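Of the counts of members called that were recomputed under other settings, 181 stayed within 1.5 times the reported count, 21 were higher and 30 lower. Of the members' own differences 1265 kept direction and side of the threshold, 39 passed it newly, 59 lost it and 27 turned direction. In CPM levels 17 of the group means moved by more than 1 SD without TMM and 95 did not. The causes were not tested, except that fewer genes or samples entered where a filter or a left-out library removed them. Depth limits KRT7 in RKO, KRT23 in DLD1, HCT15 and RKO and KRT20 in SW48 and RKO, which rest on few counts.

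With 10 counts required in every sample KRT8 and KRT18 were the 2 members left over all lines, of which 1 was called over 6 lines (KRT18, adjusted p = 0.040) and 2 for the level between lines, and 1 was called for the dye on the later day. Without a filter 3 were called for the LRC effect between lines, 1 for the dye on day 1, 1 for it on the later day, 1 in HT55, 1 in SW948 and 2 in DLD1. DESeq2 called 3 for the effect between lines and 2 for the dye on the later day. Total counts without TMM called 1 for time in unlabeled cells and 1 for the dye on the later day. The fit of all 48 sorted samples called 0 in DLD1 and 0 in HCT15. Leaving out HT55 gave 4 calls over lines, leaving out SW48 gave 1.

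With the replicate block, members called were 3 over 6 lines, 3 for the effect between lines (KRT7, KRT8 and KRT23), 1 for the dye on day 1, 1 for it on the later day, 1 in SW948 (KRT80, adjusted p = 0.0038), 2 in SW48 and 5 in DLD1, and the block changed no other count of members. All genes called went from 0 to 501 in SW948, from 2380 to 5584 for the effect between lines, from 745 to 1511 for the dye on the later day and from 5279 to 4738 in RKO. In SW948 (r 0.01 to 0.11) and RKO (r -0.07 to 0.01) samples shared only a number.

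Leaving out single libraries gave 1 to 4 members called for time in unlabeled cells, 1 to 3 for time in CFSE-labeled cells, 0 to 2 for the dye on day 1, 0 to 2 for it on the later day, 0 to 1 for dye by time, 0 to 1 in HT55, 0 to 1 in SW948, 1 to 2 in RKO, 1 to 5 in DLD1 and 0 to 1 in HCT15. None of the differences that turned sign was called. Their ranges were -0.149 to 0.0297 for KRT8 over time in unlabeled cells, -0.0179 to 0.118 for KRT80 over time in CFSE-labeled cells, -0.132 to 0.0456 for KRT19 in dye by time, -0.24 to 0.0040 for KRT18 in HT55 and -0.21 to 0.54 for KRT7 in SW48. For the dye on day 1 they were -0.195 to 0.0649 for KRT18, -0.17 to 0.31 for KRT80 and -0.86 to 0.36 for KRT20. KRT20 over lines was 0.00017 without HT55. For time in CFSE-labeled cells KRT80 was -0.0384 with 10 counts in every sample and -0.0502 without TMM, and KRT18 -0.00623 without TMM. For the dye on day 1 KRT80 was -0.0259 without a filter and -0.00995 without TMM, and KRT18 0.0044 with the replicate block. KRT19 in dye by time was 0.0037 without a filter.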

Other observations

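Keratins of stratified epithelia and hair, which the simple keratins do not include, were mostly scarce in these lines. Of 48 such genes 22 were tested over the 6 lines. Those higher in LRCs were KRT4 (1.88), KRT6A (1.21), KRT9 (1.31), KRT13 (1.23), KRT15 (0.82), KRT16 (1.10), KRT37 (1.99), KRT38 (1.33) and KRT79 (2.70), as log2 differences by edgeR. They were named after their values were seen. By line, those higher were 5 of 5 tested in DLD1 (median 2.34; background 14.6% of genes called) and 1 of 11 in SW48 (0.94; 0.796%). In RKO 2 of 3 were higher and 1 was lower (1.90; 41.5%). A scarce gene could enter a test through the population where it was higher, so these counts are a description. KRT16 in DLD1 averaged 0.266 CPM in non-LRCs and 1.55 CPM in LRCs. By edgeR and by DESeq2 0 were called in HCT15 (5 tested, median -0.24), HT55 (8 tested, 0.29) and SW948 (3 tested, 0.30). In each of these lines 2 were under 0.05 unadjusted by edgeR, beside 17.2%, 7.51% and 17.2% of all genes.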
